A study of Mus musculus with 16 samples.

Results

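The immunoglobulin genes of the heavy chain and of the kappa and lambda light chains were followed in mouse lung through every array probe whose gene name begins with Igh, Igk or Igl, leaving out Ighmbp2, Igll1 and Iglon5, which are not antibody chains. Of 55681 probes on the array, 37 carried such a name, and 32 of these were tested. They were those whose signal stood well above background in 4 or more of the 16 arrays, a filter that 37037 probes passed. The 32 probes comprised 16 for heavy chain variable segments, 8 for kappa variable segments, 5 for constant regions and 3 for expressed sequence tags or other cDNA ends. The 5 named probes that were not kept were Ighv7-4, a variable region probe named Ighm, a cDNA probe named Igkc, Igkv4-55 and Igkv6-15.

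All 5 groups were lungs of female mice. In the ARF-DTR strain the Arf promoter drives a diphtheria toxin (DT) receptor, and these mice were taken untreated at 2 months (n = 4) or at 12 months after injections of saline (PBS, n = 4) or DT (n = 4). Wild type mice without the receptor were 12 months old and had received PBS (n = 2) or DT (n = 2). Injections of PBS or of DT, at 50 microgram per kg, went into the peritoneum over 1 month with 2 weeks between them, so the comparison with age also compares injected with uninjected animals. Whole lungs were homogenised, and in such bulk RNA fewer cells of a type and less RNA per cell cannot be told apart.

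An antibody is built from a heavy and a light chain, each with a variable region that binds antigen and a constant region. In each B cell 1 variable segment per chain is joined to shorter segments, so that the variable segments seen in a tissue reflect which clones are present, while the heavy chain constant region sets the isotype: IgM and IgD in naive B cells, and IgG, IgA or IgE after class switching. Plasma cells, the end stage of the B cell lineage, make far more immunoglobulin mRNA than resting B cells. In the lung and other mucosal tissues IgA is a main isotype, though not the only one, carried across the epithelium.

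The gene names of the array were those of its design, and several did not describe the target. The 3 probes for the constant region of IgA bore the name Igh-VJ558, the probe for the IgD constant region bore the name Ighv14-2, and a lambda probe placed in the constant region bore the name Iglv1. They are called Igha, Ighd and Iglc here after the description and the position of the probe in its cDNA. The sequences of these 60-base probes show which part of the chain was read, with positions on the mm9 build. The brightest Igha probe lay at chr12:114496985-114497044, Ighd at chr12:114654277-114654336 and Iglc at chr16:19061905-19061964, each on the minus strand.
Igha: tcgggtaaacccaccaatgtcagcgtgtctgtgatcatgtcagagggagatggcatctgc
Ighd: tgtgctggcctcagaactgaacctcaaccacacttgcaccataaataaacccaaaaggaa
Iglc: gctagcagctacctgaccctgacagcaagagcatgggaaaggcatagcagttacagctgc

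Variable segments of a family resemble each other, so a probe for one can also take up transcripts of another. Of the 24 variable region probes, 9 shared an unbroken run of at least 15 bases with another variable probe of the same chain, and all 9 were heavy chain probes. Probes named J558 are called by the clone in their description, and VH5 likewise. A set of 5 overlapped in the same stretch of the segment, and a pair, J558.B10 and J558.B19, overlapped in another. A further pair, J558.B15 and J558.B18, shared 16 bases and is not printed below. All lie on the minus strand, for example J558.B7 at chr12:116358101-116358160, Ighv1-77 at chr12:117100209-117100268, J558.B20 at chr12:117158613-117158672 and J558.B11 at chr12:116396734-116396793. The capitals mark the longest run that each probe shared with its nearest other probe, which reached 29 bases between J558.B7 and Ighv1-77.
J558.B7: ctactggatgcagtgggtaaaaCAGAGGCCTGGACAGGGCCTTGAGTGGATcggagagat
Ighv1-77: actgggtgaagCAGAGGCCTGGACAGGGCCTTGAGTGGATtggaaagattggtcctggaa
J558.B20: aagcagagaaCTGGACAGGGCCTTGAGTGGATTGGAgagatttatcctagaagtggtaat
J558.B11: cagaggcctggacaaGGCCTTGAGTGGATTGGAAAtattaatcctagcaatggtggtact
VH5: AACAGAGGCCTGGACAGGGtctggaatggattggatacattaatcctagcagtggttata
J558.B10: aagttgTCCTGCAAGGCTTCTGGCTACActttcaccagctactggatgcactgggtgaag
J558.B19: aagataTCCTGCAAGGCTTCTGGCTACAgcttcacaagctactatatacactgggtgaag
The shared runs mean that these probes are not independent readings of separate segments. The part of such shared binding in the results was not tested.

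The kappa probes shared shorter runs, of at most 9 bases with another kappa probe. The sequences below belong to the probes with the largest changes with age, Igkv3-4 at chr6:70622214-70622273 and Igk-V21 at chr6:70523153-70523212, and to Igkv2-112 at chr6:68170470-68170529, which was bright on single arrays. All 3 lie on the plus strand.
Igkv3-4: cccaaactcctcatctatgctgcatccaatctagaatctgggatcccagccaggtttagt
Igk-V21: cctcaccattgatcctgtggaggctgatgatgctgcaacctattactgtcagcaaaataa
Igkv2-112: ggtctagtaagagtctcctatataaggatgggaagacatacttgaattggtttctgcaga

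Levels are given as the log2 probe signal minus the log2 of the 75th percentile of its array, so that a level of 0 is the signal of that percentile and a difference of 1 is 2-fold. That percentile ranged from 613 to 1088 in intensity, and 55.6% to 66.9% of the probes of an array exceeded background clearly. There were 2 slides, one with the 2-month and 12-month PBS ARF-DTR samples and the other with the 12-month DT ARF-DTR and all wild type samples. The age comparison and those among the 3 groups of the second slide therefore lie within a slide, whereas for DT against PBS in ARF-DTR lungs the slide and the group cannot be told apart. By the array barcodes, the 2-month arrays were in row 1 of their slide and the 12-month PBS ARF-DTR arrays in row 2. On the other slide ARF-DTR was in row 1 and wild type in row 2. Row and group thus cannot be told apart for age or between genotypes there. All 12 lung marker genes were kept by the filter, and surfactant protein C (Sftpc) changed by -0.01 ± 0.09 (SE) with age (limma, adjusted p = 0.985).

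Immunoglobulin transcripts were higher in the 12-month PBS lungs than in the 2-month ARF-DTR lungs. Of the 32 probes 24 rose and 0 fell at an adjusted p under 0.05 by limma, against 2.17% of all probes that rose, 2.98% that fell and 5.14% that changed in either direction. At an unadjusted p under 0.05, 28 were higher and 0 lower. Here and in the comparisons below, the share of all probes at an unadjusted p under 0.05 was not counted. The unadjusted counts therefore have no background beside them. The median change was 3.74 on the log2 scale over the 32 probes and -0.03 over all probes. In 27 of the 32 the groups did not overlap, against 12.5% of all probes.

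**Figure D1:**
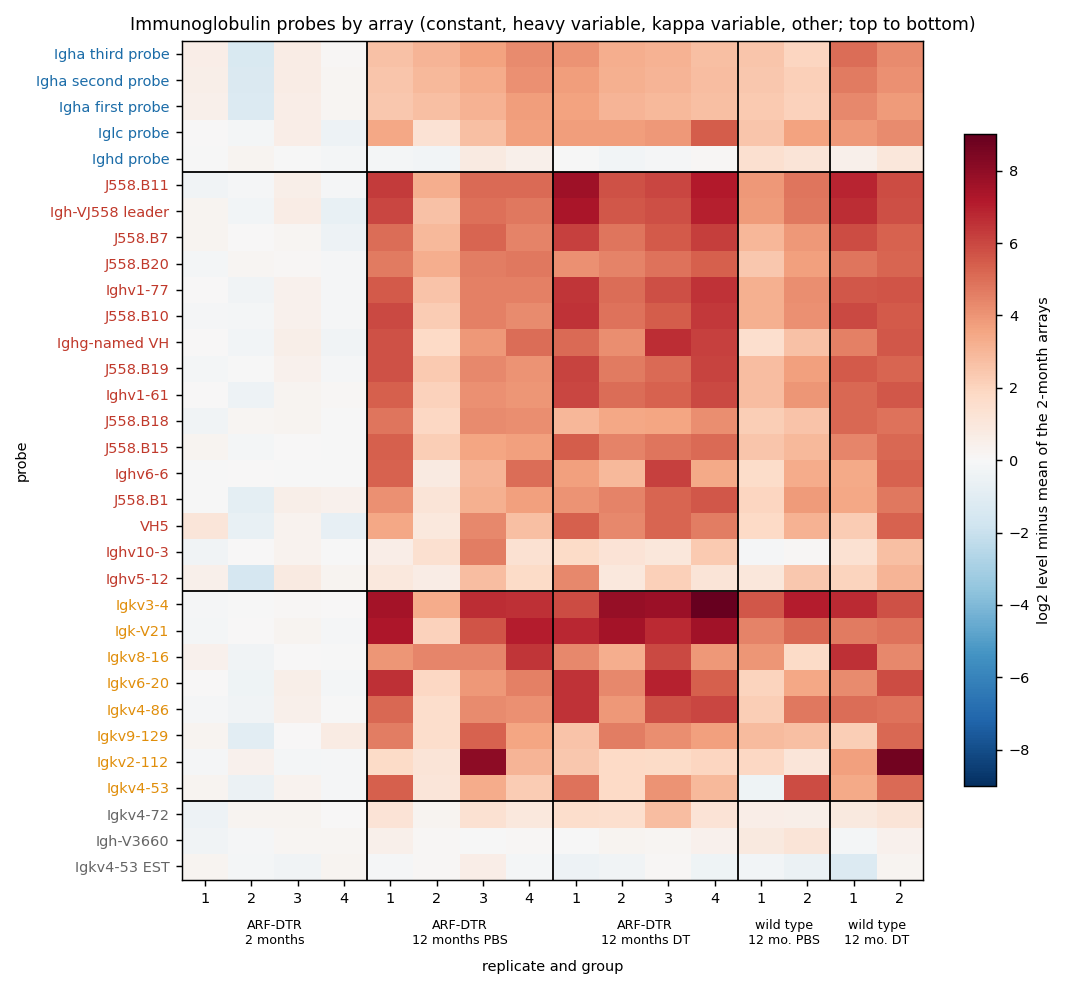
Level of each of the 32 immunoglobulin probes (rows) in each of the 16 arrays (columns), as the log2 difference from the mean of the 2-month arrays, with red for higher and blue for lower. Nearly all variable segment rows are red across the 12-month arrays, PBS replicate 2 is paler than the other PBS arrays, and the Ighd row stays near white in the ARF-DTR arrays.

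Among the constant regions Igha, the brightest of its 3 probes, read 4.51, 2.80, 4.62 and 4.19 in the 2-month lungs and 6.44, 6.77, 7.18 and 7.80 in the 12-month PBS lungs. The groups did not overlap, and replicate 2 was the lowest of the young lungs. Its change was 3.02 ± 0.38 (SE), an 8.09-fold difference (limma, adjusted p = 0.000715). The other 2 Igha probes changed by 3.22 and 3.39, so all 3 probes for this isotype rose.

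Iglc, from a lambda light chain, read 1.11, 0.88, 1.68 and 0.61 at 2 months and 4.52, 2.41, 3.78 and 4.77 at 12 months with PBS. The groups did not overlap although PBS replicate 2 was well below the other 3, and the change was 2.80 ± 0.51 (SE; limma, adjusted p = 0.00706). Ighd, the isotype of naive B cells, read 0.63, 0.87, 0.65 and 0.47 at 2 months and 0.50, 0.39, 1.44 and 1.14 at 12 months. These groups overlapped, and the change of 0.21 ± 0.21 did not pass the test (limma, adjusted p = 0.651). Ighd was thus the 1 constant region probe of the 5 that was not called with age.

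Most heavy chain variable segments rose with age. Of 16 probes 14 passed, with a median change of 3.99 and a range from 1.55 to 4.96. J558.B11 had the largest change and read -3.80, -3.61, -2.94 and -3.55 at 2 months and 2.85, -0.17, 1.62 and 1.66 at 12 months with PBS. The change was 4.96 ± 0.57 (SE), 31.2-fold (limma, adjusted p = 0.000419). All 4 older lungs were above all 4 young ones, and among the older lungs replicate 1 was highest and replicate 2 lowest.

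J558.B20 had the smallest error of the heavy chain segments and read -4.14, -3.77, -3.81 and -4.08 at 2 months and 0.75, -0.67, 0.68 and 0.78 at 12 months. Its change was 4.34 ± 0.36 (limma, adjusted p = 5.147e-05). Here 3 of the older lungs were nearly equal and replicate 2 stood below them. The other 3 of the 5 largest changes were those of the Igh-VJ558 leader probe (4.59 ± 0.62), which reads the start of a heavy chain cDNA, J558.B7 (4.40 ± 0.46) and Ighv1-77 (4.30 ± 0.51). The variable region probe named Ighg, from a gamma chain cDNA, rose by 4.12 ± 0.74 (limma, adjusted p = 0.00685). It was the only member with dropped outlier spots, on 7 of the 16 arrays.

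The smallest changes among the heavy chain segments belonged to Ighv5-12 (1.55 ± 0.75; adjusted p = 0.284) and Ighv10-3 (1.99 ± 0.66; adjusted p = 0.11), neither of which passed limma's test, and to VH5 (2.86 ± 0.76; adjusted p = 0.0467), which did. The Ighv10-3 levels were -2.64, -2.30, -2.07 and -2.40 at 2 months and -1.73, -0.94, 2.22 and -0.99 at 12 months with PBS. PBS replicate 3 alone lay above 0, although all 4 older lungs were above the young ones. Ighv6-6 was not well above background in any 2-month lung and was at least 2.58-fold higher at 12 months (measured means -4.44 and -7.99; limma, adjusted p = 0.0455). The calls of Ighv6-6 and VH5 were each lost when any array of these groups but PBS replicate 2 was left out, that of J558.B1 was lost without 2-month replicate 2, and the other 11 called heavy chain probes were called without any single array.

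The 8 probes nearest to the constant regions, 411 to 1742 kb from Ighd, had a median change with age of 3.30, and 6 of them were called. The 8 farthest, at 1943 to 2504 kb, had a median of 4.18, and all 8 were called. The near set holds segments of several families, among them J558.B1, J558.B7 and J558.B11, and the far set holds only probes named J558 or Ighv1. Both sets hold probes that share sequence with others. The near set also holds Ighv6-6, Ighv5-12 and VH5, well above background in 0, 1 and 2 of the 4 young lungs. Each far probe was well above background in all 4. The part of dim signal in the difference between the sets was not tested.

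The kappa segments included the largest changes of the 32 probes. Of 8 probes 6 rose, with a median change of 3.99 and a range from 3.02 to 6.0. Igkv3-4 read -2.83, -2.74, -2.67 and -2.72 at 2 months and 4.74, 0.57, 3.90 and 3.86 at 12 months with PBS. The young lungs were nearly equal (SD 0.0666) while the older ones spread over several log2 units with replicate 2 lowest (SD 1.84), and the change was 6.0 ± 0.81, 64.2-fold (limma, adjusted p = 0.00108).

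Igk-V21 read -3.49, -3.31, -3.11 and -3.45 at 2 months and 3.92, -1.24, 2.30 and 3.71 at 12 months, a change of 5.51 ± 0.83 (limma, adjusted p = 0.00234). PBS replicate 2 was again the lowest older lung but above every young one. Igkv8-16, not well above background at 2 months, was at least 22.0-fold higher (measured means -1.33 and -6.14; limma, adjusted p = 0.00187). Igkv6-20 rose by 4.2 ± 0.84, Igkv4-86 by 3.78 ± 0.75 and the sixth called kappa probe by 3.78 ± 0.78.

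The kappa probes that did not pass were Igkv4-53 (3.02 ± 1.19; limma, adjusted p = 0.179) and Igkv2-112 (3.51 ± 1.28; limma, adjusted p = 0.144). Igkv2-112 read -6.24, -6.78, 0.08 and -4.91 in the 12-month PBS lungs, against -8.10 to -7.58 at 2 months, where it was not well above background, and was at least 2.54-fold higher. A single lung, PBS replicate 3, was far above the rest, and it was the same lung that stood out for Ighv10-3. Of the 3 tag probes 0 were called with age by limma (1, Igkv4-72, was higher at an unadjusted p under 0.05), with changes from 0.10 to 0.96.

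**Figure D2:**
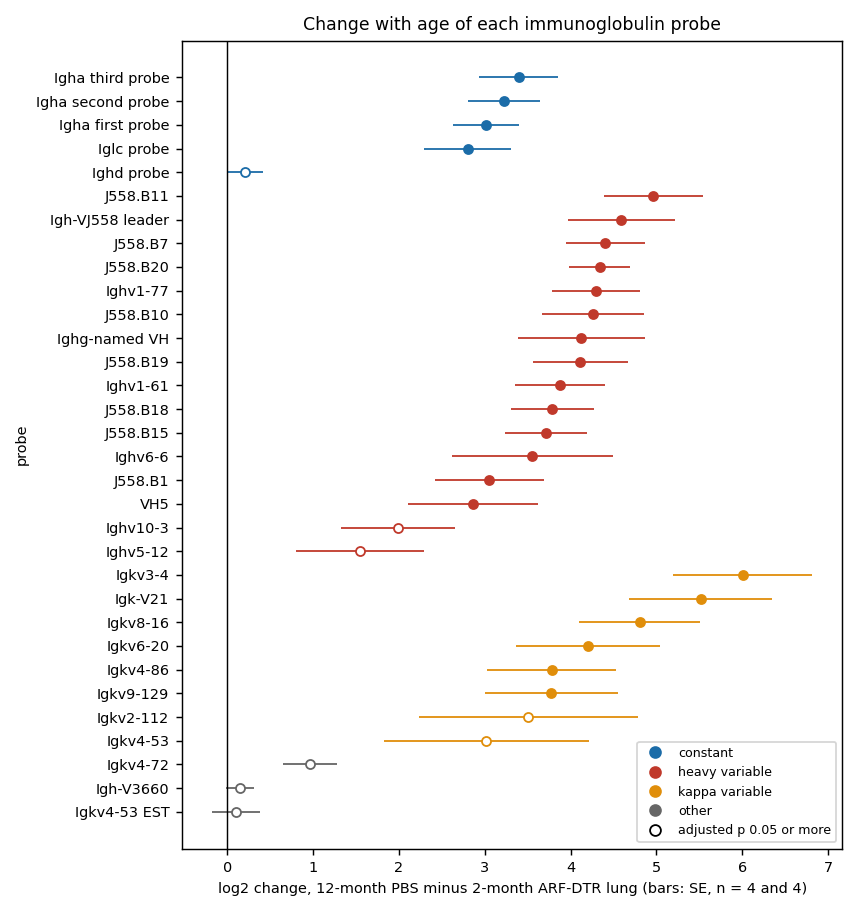
Fitted log2 change from 2-month to 12-month PBS ARF-DTR lung for the 32 probes, grouped by region (colour), with bars for the SE and open circles where the adjusted p was 0.05 or more. The variable segments lie between 1.55 and 6.0, the Igha probes between 3.02 and 3.39, and Ighd at 0.21.

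Probes for other constant regions, known by their description but outside the naming rule, allowed isotypes to be set against IgM. Ighm read 1.79, 1.67, 1.76 and 1.91 at 2 months and 7.28, 3.31, 6.07 and 6.34 at 12 months with PBS, a change of 3.97 ± 0.64 (limma, adjusted p = 0.00374). All older lungs were above the young ones. The kappa constant region Igkc changed by 3.45 ± 0.41 (limma, adjusted p = 0.000499) and most IgG genes by more, with Ighg2b by 6.61 ± 0.61 (limma, adjusted p = 0.000125), Ighg1 by 6.78 ± 0.67 (limma, adjusted p = 0.00016) and Ighg3 by 8.13 ± 1.15 (limma, adjusted p = 0.00155). Of 13 such constant region probes 12 rose, the exception being that of IgE (Ighe; limma, adjusted p = 0.16). Ighe and Ighg2c were not well above background in any 2-month lung. They were at least 1.04-fold (measured means -5.74 and -7.68) and at least 1.60-fold higher (measured means -5.13 and -7.20). The Ighg2c probe, at chr12:114523536-114523595, lies near a probe described as IgG2a, at chr12:114525496-114525555 on the same strand, which changed by 6.88. Whether these probes read the same gene was not tested.

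Within each array the difference between a constant region probe and the Ighm probe was then compared between ages over 12 pairs, where the sign and size of a change in the difference can be read but not the difference itself, which depends on the probes. By an exact two-sided permutation test with Benjamini-Hochberg adjustment over the 12, 8 pairs passed, at the smallest p that 4 against 4 can give (0.0286, adjusted 0.0429). Relative to Ighm, Ighg3 gained 4.16, the IgG2a probe 2.91, Ighg1 2.82 and Ighg2b 2.64 on the log2 scale, while Ighd changed by -3.76, and the lambda genes Iglc2 and Iglc3 by -2.67 and -2.64. The eighth pair was that of Ighe, which was not well above background in any 2-month lung, so its change relative to Ighm has no measured size. The Ighg2c pair went the other way from the other IgG probes, at -1.90, and did not pass (exact permutation p = 0.0571). Ighg2c was likewise not well above background in any 2-month lung, so this value has no measured size either. Ighg3 was well above background in 2 of the 4 young lungs and Ighg1 in 3. Igha changed by -0.95 relative to Ighm (exact permutation p = 0.343), the member Iglc by -1.17 (exact permutation p = 0.0571) and Igkc by -0.52 (exact permutation p = 0.2), with groups that overlapped. With normexp background correction, which also added a constant offset to every signal, the gains of Ighg1 and Ighg3 fell to 1.18 and 2.03. They did not pass (exact permutation test, adjusted p = 0.152 and 0.171), and the part of the offset was not tested.

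**Figure D3:**
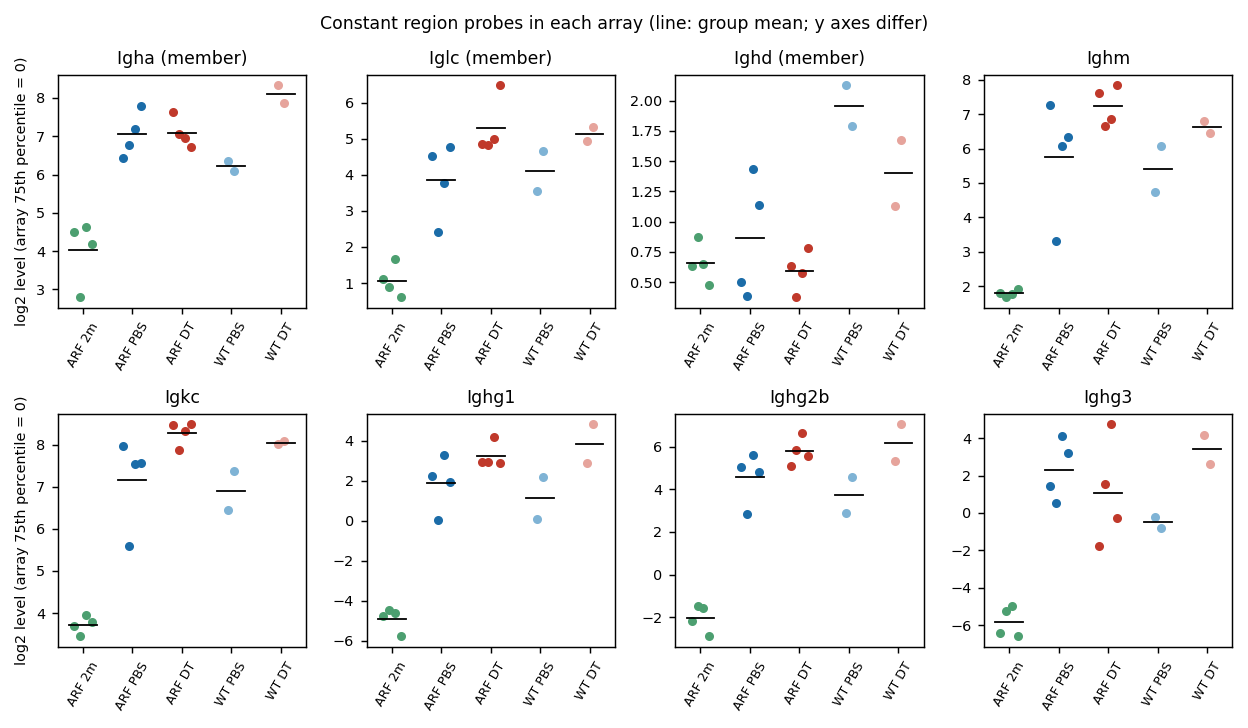
Log2 level of 8 constant region probes in each array (points) with the group mean (line), for the members Igha, Iglc and Ighd and for Ighm, Igkc, Ighg1, Ighg2b and Ighg3, which are outside the naming rule. The 2-month lungs lie below all other groups in every panel except that of Ighd, where the ARF-DTR groups overlap and both wild type PBS lungs are above all ARF-DTR lungs, and the y axis differs between panels.

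The spread between lungs of a group was itself larger for these genes than for most probes. The median SD of the log2 level over the 32 probes was 0.32 in the 2-month lungs, 1.30 in the 12-month PBS lungs, 0.68 with DT, and 0.66 and 0.53 in the wild type groups of 2 lungs, while over all probes it lay between 0.0986 and 0.148. In the PBS group 23 of the 32 probes (71.9%) had an SD above 1, against 1.82% of all probes. The wild type values rest on 2 arrays each.

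In the PBS group the median SD was 1.84 for kappa segments, 1.32 for heavy chain segments and 0.69 for the 5 constant region members, 3 of which read Igha. Kappa segments also had the largest median SD in the DT group (1.15), while in the 2-month lungs the constant region members did (0.84). There, 2-month replicate 2 read lowest for each of the 3 Igha probes. Differences in spread between regions or groups were not tested.

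Many segments had the same lung as their highest or lowest. PBS replicate 2 was the lowest of its group for 15 of 16 heavy chain and 7 of 8 kappa segments, and PBS replicate 1 was the highest for 11 and 5. The order differed for the 5 constant region members, 3 of which read Igha. Replicate 4 was highest for 4 of them, and replicate 1, highest for most variable segments, was lowest for the 3 Igha probes. Replicate 2 was lowest for the other 2, Iglc and Ighd. It was also lowest for each of the 13 constant region probes outside the naming rule. Among these, replicate 1 was highest for Ighm and Igkc, and replicate 3 for Ighg1, Ighg2b and Ighg3. In the DT group replicates 1 and 4 were each highest for 7 of the 16 heavy chain segments and replicate 2 was lowest for 12. In the 2-month lungs replicate 3 was highest for 11 of 16.

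Markers of the antibody-producing lineage also differed between the PBS lungs. J chain (Igj), which joins units of secreted IgA and IgM, read 5.91, 3.42, 5.45 and 5.93 in the PBS lungs and -0.84 to 0.85 in the 2-month lungs, a change of 4.87 ± 0.53 (limma, adjusted p = 0.000285). Mzb1, an endoplasmic reticulum protein of plasma cells, read 2.68, 0.18, 1.79 and 2.01 in the PBS lungs and changed by 2.09 ± 0.42 (limma, adjusted p = 0.0129). Tnfrsf17, the plasma cell receptor BCMA, changed by 2.59 ± 0.47 (limma, adjusted p = 0.00753), and Derl3, of the pathway that removes misfolded proteins, by 1.94 ± 0.47 (limma, adjusted p = 0.0303). PBS replicate 2 was the lowest of its group for Igj and Mzb1, as for most variable segments.

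Of 18 plasma cell and secretion genes 7 rose and 0 fell with age, with a median change of 0.25. Their summed signal, relative to the 75th percentile, was 139 to 144 in the 2-month lungs and 154 to 249 in the PBS lungs. Of 21 B cell genes 6 rose and 0 fell, with a median change of 0.61. Their largest changes were those of the transcription factor Spib (0.79 ± 0.15; limma, adjusted p = 0.0107), Tnfrsf13c (0.73 ± 0.22; limma, adjusted p = 0.0721), Cd72 (0.72 ± 0.24; limma, adjusted p = 0.101) and Ms4a1, the CD20 gene (0.70 ± 0.20; limma, adjusted p = 0.0627). The summed B cell signal was 54.1 to 62.4 at 2 months and 59.6 to 92.2 with PBS. The part of B cell or plasma cell numbers in the immunoglobulin changes was not tested.

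The other lists showed few calls with age. Of 12 T cell genes 2 rose and 0 fell, Lat by 0.88 ± 0.12 (limma, adjusted p = 0.00102) and Thy1 by 0.50 ± 0.10 (limma, adjusted p = 0.013), followed in size by Cd3g (0.41) and Cd28 (0.37), which did not pass. Of 10 receptors that bind or carry immunoglobulin 1 fell, Fcgrt, the neonatal receptor that recycles IgG (-0.33 ± 0.07; limma, adjusted p = 0.0121). The larger values of Fcer1a (0.91), Fcamr (0.76) and Fcgr4 (0.57) did not pass. Pigr, which carries IgA across epithelium, changed by -0.24 ± 0.12 (limma, adjusted p = 0.277). Of 8 kept genes of recombination and class switching 0 were called, among them Mef2b (0.43), Gcsam (0.30) and Vpreb1 (-0.26). Of 4 kept thymus genes Tbata rose by 0.93 ± 0.17 (limma, adjusted p = 0.0065), while Aire (0.25), Cd1d1 (-0.23) and Dntt (-0.08) did not pass. Of 8 red blood cell genes 0 were called, among them Epb4.2 (0.43), Slc4a1 (0.33) and Ahsp (0.12). Of 12 lung genes 1 fell, Pecam1 (-0.27), beside Cldn18 (-0.28), Napsa (-0.25) and Aqp5 (-0.22), which did not pass.

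With DT in 12-month ARF-DTR lungs 23 of the immunoglobulin probes had a higher mean than with PBS and 9 a lower one, and few passed the test. Of the 32 probes 4 rose and 0 fell, against 14.4% of all probes that rose and 25.8% that changed, so the share called was near the background (limma). At an unadjusted p under 0.05, 13 were higher and 0 lower. The share of all probes at that threshold was not counted and is at least the 25.8% called after adjustment. The 13 are therefore not read as a result about these probes. The median change was 1.03, against 0.01 over all probes, and the groups did not overlap for 1 of the 32 (Iglc), against 28.5% of all probes. This comparison shares the PBS lungs with the age comparison.

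The 4 called probes were heavy chain segments. Ighv1-77 read 4.49, 3.09, 3.90 and 4.57 with DT, against 3.58, 0.65, 2.62 and 2.64 with PBS, a change of 1.64 ± 0.51 (limma, adjusted p = 0.0315). The groups overlapped, since PBS replicate 1 was above DT replicate 2. Ighv1-61 changed by 1.69 ± 0.53, J558.B11 by 1.66 ± 0.57 and the Igh-VJ558 leader by 1.85 ± 0.62. Each of the 4 calls was lost without PBS replicate 2 or 3 or DT replicate 1, 3 or 4. The count was 0 without DT replicate 3 or 4, 9 without PBS replicate 1 and 7 without DT replicate 2, and the fit on these 2 groups alone called 0.

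The largest value was that of VH5 (2.03 ± 0.76), which did not pass (limma, adjusted p = 0.0654), nor did J558.B1 (1.78 ± 0.63; limma, adjusted p = 0.0537). The lowest values were those of Igkv2-112 (-1.54 ± 1.28, at least 2.29-fold lower, as it was not well above background with DT), Igkv8-16 (-0.44 ± 0.70) and Ighv10-3 (-0.41 ± 0.66), none of which passed either. Without PBS replicate 3 the difference of Igkv2-112 was -0.03 and that of Ighv10-3 was 0.45, and without PBS replicate 4 that of Igkv8-16 was 0.09. Iglc read 4.85, 4.84, 4.98 and 6.49 with DT and changed by 1.42 ± 0.51 (limma, adjusted p = 0.055). Igha read 7.63, 7.06, 6.94 and 6.72 with DT, within the PBS range, and changed by 0.04 ± 0.38 (limma, adjusted p = 0.946). Ighd changed by -0.27 ± 0.21 (limma, adjusted p = 0.366). None of the 12 isotype differences relative to Ighm passed for DT, and the smallest unadjusted p, for Ighd, was 0.0857 (exact permutation test, 0 of 12 with an unadjusted p under 0.05).

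Beside this, and against 14.4% of all probes that rose and 11.5% that fell, 8 of 18 plasma cell and secretion genes rose and 1 fell with DT, with the receptor Tnfrsf17 at 1.37 ± 0.47 (limma, adjusted p = 0.0496), and 5 of 21 B cell genes fell, Spib by 0.62 (SE 0.15; limma, adjusted p = 0.0117). Of the immunoglobulin receptors 4 of 10 rose, among them Fcgr3 by 0.87 ± 0.15 (limma, adjusted p = 0.00162). Fc gamma receptors bind IgG on macrophages and other cells. The lung list also moved in this comparison, with 8 of 12 genes higher.

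In wild type lungs, which lack the toxin receptor, DT was also accompanied by higher values of most immunoglobulin probes, but with 2 lungs per group 0 of the 32 passed limma's test, against 0.2% of all probes (0.0594% higher and 0.14% lower), and 17 were higher and 1 lower at an unadjusted p under 0.05. The median change was 1.92, against -0.03 over all probes, and 27 of 32 were positive. Both DT lungs lay above both PBS lungs for 13 of 16 heavy chain segments, 4 of 8 kappa segments and 4 of 5 constant regions, with Ighd below. Altogether 24 of 32 probes did not overlap, against 43.1% of all probes.

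Igha read 6.35 and 6.10 with PBS and 8.33 and 7.87 with DT in wild type lungs, a change of 1.88 ± 0.54 (limma, adjusted p = 0.165). The DT lungs were both above the PBS lungs, unlike in ARF-DTR mice. J558.B20 read -1.50 and -0.26 with PBS and 0.90 and 1.32 with DT (1.99 ± 0.51; limma, adjusted p = 0.129). Igkv3-4 read 2.83 and 4.35 with PBS and 3.97 and 2.97 with DT, which overlapped. Igkv2-112 read -4.28 and 0.74 with DT, so that a single lung was bright, and was at least 10.3-fold higher than with PBS, where it was not well above background (measured means -1.77 and -6.48; limma, adjusted p = 0.283).

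The difference between the DT responses of the genotypes, tested as an interaction, passed for 0 of the 32 probes, against 1.95% of all probes, 0.859% higher and 1.09% lower (limma). At an unadjusted p under 0.05, 1 was higher and 7 lower. For Igha it was -1.83 ± 0.66 (limma, adjusted p = 0.148) and for the third Igha probe -2.51 ± 0.79 (limma, adjusted p = 0.111). The ARF-DTR arm of this test crosses the slides and the wild type arm does not.

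**Figure D4:**
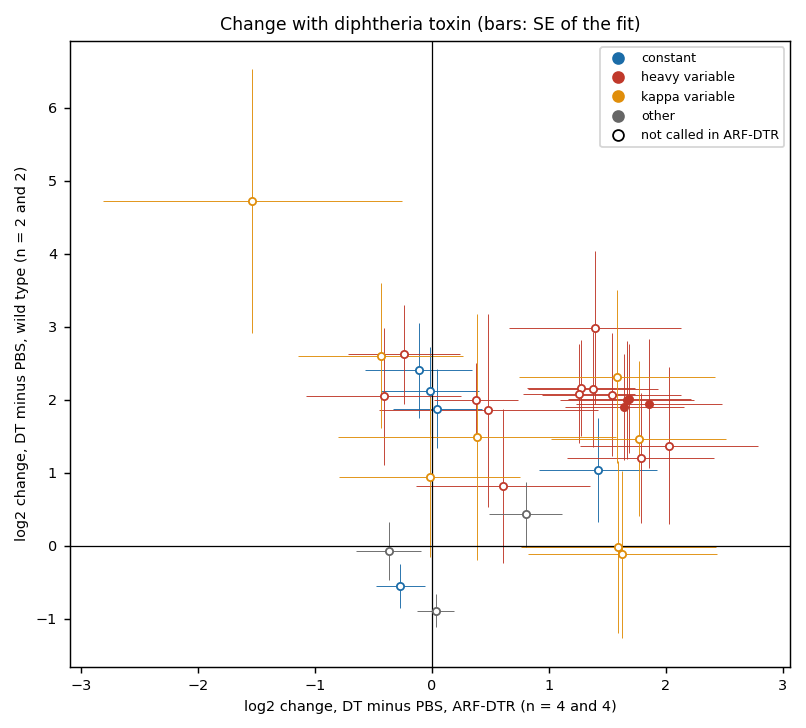
Log2 change with DT in ARF-DTR lungs (x axis) and in wild type lungs (y axis) for each of the 32 probes, with SE bars and filled circles for the 4 probes called in ARF-DTR. Most heavy chain segments lie above 0 on both axes, and the 3 Igha probes lie near 0 in ARF-DTR and near 2 in wild type.

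Against the 2-month lungs, the DT-treated 12-month ARF-DTR lungs had 27 of 32 probes higher and 0 lower, against 12.8% of all probes that rose (limma), and 28 higher and 0 lower at an unadjusted p under 0.05. The median change was 4.54. Igkv3-4 changed by 7.63 ± 0.81 (limma, adjusted p = 4.294e-05), Igk-V21 by 7.10 ± 0.83 and J558.B11 by 6.63 ± 0.57. The groups did not overlap for any of the 24 variable segments, and 29 of all 32 probes did not overlap, against 27.3% of all probes. Igha changed by 3.06 ± 0.38, close to its change in PBS lungs, and Ighd by -0.06 ± 0.21 (limma, adjusted p = 0.862). The 2-month lungs are shared with the age comparison, and this comparison crosses the slides.

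Between genotypes with PBS, 2 of 32 probes were lower in ARF-DTR lungs and 0 higher, against 11.3% of all probes that were lower and 9.59% that were higher (limma). At an unadjusted p under 0.05, 5 were higher and 2 lower. The groups did not overlap for 8 of the 32, against 46.5% of all probes. The called probes were Ighd and Igh-V3660. Ighd read 2.13 and 1.79 in the wild type lungs and 0.39 to 1.44 in ARF-DTR (-1.09 ± 0.26; limma, adjusted p = 0.0117). Igh-V3660 is a tag probe without a genome position. Its mean was -4.64 in ARF-DTR and -3.78 in wild type (-0.86 ± 0.19; limma, adjusted p = 0.00917). The ARF-DTR lungs were all below the wild type lungs for both, and the call was lost without wild type PBS replicate 1 for Ighd and without replicate 2 for Igh-V3660. The summed B cell signal was 104 to 108 in these wild type lungs and 59.6 to 92.2 in ARF-DTR, and the part of B cell numbers in the Ighd difference was not tested. The slide and the genotype cannot be told apart here.

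Within the second slide, DT-treated ARF-DTR lungs were compared with both wild type groups. Against wild type with DT, 0 of 32 probes passed, against 1.18% of all probes (limma), and 1 was higher and 6 lower at an unadjusted p under 0.05. The median difference was 0.10, and 8 of 32 did not overlap, against 24.8% of all probes. Against wild type with PBS, 5 passed, against 4.73% of all probes (1.87% higher and 2.85% lower), and 23 did not overlap, against 33% of all probes. The variable region probe named Ighg (3.43 ± 0.91; limma, adjusted p = 0.0487), J558.B15 (2.26 ± 0.59; limma, adjusted p = 0.0458) and J558.B7 (2.24 ± 0.57; limma, adjusted p = 0.0418) were higher. Ighd (-1.36 ± 0.26; limma, adjusted p = 0.0146) and Igh-V3660 (-0.82 ± 0.19; limma, adjusted p = 0.0316) were lower, as in the comparison with PBS, with which this one shares the wild type lungs. The call of J558.B15 was lost without any 1 of the 6 arrays, those of J558.B7 and the Ighg probe without any but DT replicate 2, and that of Igh-V3660 without 4 of them (DT replicates 1 and 3 and both wild type arrays). The Ighd call was lost without wild type PBS replicate 1. Ighd read 0.64, 0.38, 0.58 and 0.78 in the DT-treated ARF-DTR lungs, below both wild type lungs given PBS.

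In the wild type PBS pair replicate 2 was above replicate 1 for all 16 heavy chain segments. Among the constant region members, most of which read Igha, replicate 1 was the lower for 1 of 5. Outside the naming rule replicate 1 was the lower for most constant region probes, such as Ighm (4.73 against 6.06) and Igkc (6.44 against 7.37). The exceptions were Ighg3 (-0.20 against -0.78) and Ighe (-6.95 against -6.98). The pair's median SD was 1.06 for the kappa segments, and Igkv4-53 read -6.01 and 0.26, the widest gap among the 32 probes there.

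**Figure D5:**
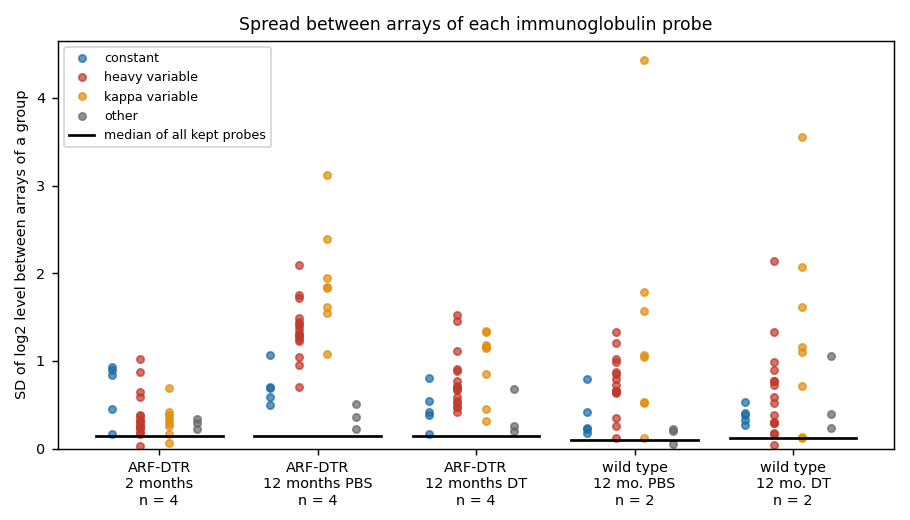
SD of the log2 level between arrays of a group for each of the 32 probes (points, coloured by region) and the median SD of all kept probes (black line), for the 5 groups. In the ARF-DTR PBS group 23 of the 32 points lie above 1, while the line stays between 0.0986 and 0.148 in all groups.

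Probes of the same loci that carry only an accession as their name were read for comparison. Of 136 such variable region or rearranged chain probes 99 rose with age and 0 fell, with a median change of 3.27, and with DT in ARF-DTR lungs 14 rose and 0 fell, with a median of 1.08, beside 14.4% of all probes that rose. They share the arrays with the 32 named probes. Their median SD was 0.32 in the 2-month lungs and 1.47 in the PBS lungs.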

How the data were processed

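Lung RNA of 16 samples was read on single-colour Agilent arrays, 1 per sample. Per the submitters' processing notes, images were read with Agilent Feature Extraction 10.10.1.1, and per the file headers the probe design was placed on mm9. The deposited files hold intensity values per spot, of which the authors' background-subtracted processed signal was used. An alternative, normexp, used the mean and background intensity and added a constant offset to every signal. Of the log2 values deposited in the authors' series matrix, at least 99.93% per array lay within 0.05 of the log2 signal minus the array's 75th percentile, the scale used here. Controls and the 105 to 171 outlier spots of each array were dropped and repeated spots averaged. Saturation affected 0 spots. The number of arrays limits the precision.

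Groups came from the sample titles. The title, source and treatment of wild type PBS replicate 1 name PBS while its description mentions DT. Separate mice are not stated in the labels, and p-values therefore reflect only how these samples vary, possibly for technical reasons. Members, lists and comparisons were chosen with earlier results of these data known. Tests used limma 3.58.1 with R 4.3.3 (data.table in version 1.17.8, jsonlite in version 2.0.0), with 1 mean per group over the 16 arrays and Benjamini-Hochberg adjustment over all 37037 kept probes. Values after ± are SE of that fit. A fold over a group in which a probe was never well above background is given as "at least", against the lowest signal of a probe well above background on each array or the probe's own where higher. The fit was tested on simulated data.

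No kept member read the IgM constant region. Therefore the isotype comparison used the probe described as heavy constant mu and other constant region probes known by their description, a choice made after seeing the data. Named were all constant region members, per chain the 5 largest and 3 smallest changes with age, the 3 largest in each direction with DT in ARF-DTR, up to 3 called probes per direction elsewhere, and the 4 genes of each marker list with the largest change with age, of which some are not reported here. The remaining genes named were chosen after their values were seen. Alternatives were scaling, background correction, the series table, filters, a signal floor, 1 probe per gene name, the groups fitted, a variance trend, a replicate block, fits within a slide and leaving out each array. Replicate numbers in the titles did not pair samples.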

Additional observations from a re-analysis of the deposited data

Results flagged for a closer look

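In 96 sets of 4 arrays (32 probes in 3 groups), 3 held an array whose gap to the nearest other was above Dixon's critical value, which chance gives in about 1 of 20 sets. J558.B20 read -0.67 in 12-month PBS replicate 2, against 0.68 in the next lowest lung. Iglc read 6.49 in 12-month DT replicate 4, against 4.98 in the next highest. Igkv2-112 read -7.58 in 2-month replicate 2, against -8.09 in the next highest, and was not well above background in any of these lungs.

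Of the 5 named probes that were not tested, 2 gave signal well above background on some 12-month arrays and on none of the 2-month arrays. Ighv7-4 did so on 3 arrays (PBS replicates 2 and 4 and DT replicate 4). The cDNA probe named Igkc, which lies beyond the kappa constant region, did so on 2 arrays (PBS replicate 4 and DT replicate 4).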

How the results depend on the processing

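Of the 32 probes, 22 to 24 were called with age and 25 to 27 for DT at 12 months against 2 months under every other setting run except 1 probe per gene name, which tested 19 and called 12 and 15. The 4 calls with DT in ARF-DTR became 12 with median scaling, 2 with quantile normalization, 13 with normexp, 0 with no filter, 2 with 1 probe per gene name, 0 with only the groups compared and 8 with a variance trend. For the interaction (0) the count was 1 with median scaling, 1 with quantile normalization and 4 with normexp. For ARF-DTR against wild type with PBS (2) it was 4 with normexp and 1 with only the groups compared, and with DT (0) it was 1 with no filter. For ARF-DTR with DT against wild type with PBS (5) it was 1 with no filter, 3 with 1 probe per gene name, 3 with only the groups compared, 8 with a variance trend, 2 with the replicate block and 3 within slide 2. The causes were not tested. No direction of a called value reversed.

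Leaving out 1 array at a time gave 21 to 25 calls with age, 25 to 27 for DT at 12 months against 2 months, 0 to 9 with DT in ARF-DTR, 0 to 1 in wild type and 0 to 1 for the interaction. It gave 1 to 8 between genotypes with PBS (1 without wild type PBS replicate 1, 8 without ARF-DTR PBS replicate 2) and 0 to 0 with DT. For ARF-DTR with DT against wild type with PBS it gave 0 to 5 (0 without wild type PBS replicate 1).

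Samples with the same replicate number did not deviate together (correlations from -0.17 to 0.31 over 26 pairs), and the fit with the replicate block called 22 with age and 5 with DT in ARF-DTR.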
